A study of Homo sapiens with 27 samples.

Results

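A set of 109 genes differed from parental cells in the same direction in resistant and in withdrawal Caco2 cells, a human colorectal cancer line that can differentiate towards small-intestinal enterocytes in culture. The members were chosen by a rule on the deposited values, read here as log2 intensities: the mean of the 3 resistant arrays and the mean of the 3 withdrawal arrays both lay at least 1 above, or both at least 1 below, the mean of the 3 parental arrays, and the highest of the 3 state means was 8 or more. Of 17687 named genes, 72 members were higher and 37 lower than in parental cells, all of them protein-coding. Because the rule used the Caco2 arrays, every Caco2 value of a member is a description with no test, and members are tested only in the other lines, LIM1215 and SW48.

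Total RNA of the 3 lines was measured on 27 single-colour whole-transcript arrays, 3 for each line in each state. Resistant cells (coded R20) had survived 20 cycles of treatment with cetuximab at 1 µg/ml together with NK-CD16 cells. Cetuximab is an antibody against EGFR, and NK-CD16 cells are natural killer (NK) cells that bear CD16, the Fc receptor through which they bind antibody-coated cells. Withdrawal cells (coded W20) were resistant cells kept for a further 20 cycles without the treatment, and parental cells were the original lines. All lines had been grown from a single clone. Caco2 grew in Eagle's MEM with serum, SW48 in RPMI with serum, and LIM1215 in RPMI with serum, hydrocortisone and insulin. The labels do not say whether replicates were separate cultures, so the p-values measure only the spread between these samples, and the number of arrays limits the precision.

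Several facts of the whole series bear on these genes. A group was called near background when its mean lay below the 95th percentile of 612 negative control probe sets on its arrays. NK and leukocyte markers above that level numbered 12 of 31 in resistant Caco2 cells, 1 in withdrawal cells and 1 in parental cells, and that 1 was IL2RG in both of the last groups. Their summed log2 value per array was 204.2 to 211.1 in resistant cells, 110.5 to 113.3 in withdrawal cells and 112.8 to 116.7 in parental cells. None of the 31 markers is a member. Of 17 colorectal epithelial markers, EPCAM and CDH1 among them, 11 were above background in each Caco2 state. In bulk RNA, fewer cells of a type and less RNA per cell cannot be told apart. Levels were not compared between lines, whose array medians differed, from 7.90 to 8.05 in LIM1215, 6.43 to 6.54 in SW48 and 6.99 to 7.08 in Caco2. LIM1215 parental replicate 3 stood apart from its group, with Pearson's r as low as 0.98709 across genes against at least 0.99465 within every other group. Results of LIM1215 that rest on it are given with and without it. The tests share a single estimate of the spread over all 9 groups, so this array also enters the SW48 tests. SW48 tests with only that array left out were not run.

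Antibody-directed NK cells kill through granule proteins and also release interferon gamma, which switches on antiviral and antigen-presentation genes in the cells around them. Type I interferons act on many of the same genes through a response element in their promoters, the interferon-stimulated response element (ISRE). Caco2 cells, like fetal intestine and liver, make plasma proteins such as apolipoproteins and alpha-1-antitrypsin. FOS, JUN and EGR proteins are transcription factors whose mRNAs appear within minutes of growth factor signalling.

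The 4 promoters below are shown as examples of members whose promoters hold matches to the core of the ISRE, with IFI6, OAS3 and IFITM3 from the interferon-induced genes and CFB from the complement genes. Each is the 250 bases before the gene's start in RefSeq's annotation of GRCh38.p14, written 5′ to 3′ on the strand of the gene. Capitals mark matches to the core, which is GAAA, any 2 bases and GAAA again, or TTTC, any 2 bases and TTTC for a match on the other strand.
IFI6 (chr1:27672193-27672442, minus strand): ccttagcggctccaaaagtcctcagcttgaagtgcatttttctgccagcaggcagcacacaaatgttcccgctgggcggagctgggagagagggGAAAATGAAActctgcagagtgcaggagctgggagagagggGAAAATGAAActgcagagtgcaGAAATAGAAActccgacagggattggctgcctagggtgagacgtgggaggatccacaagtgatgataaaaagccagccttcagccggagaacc
OAS3 (chr12:112938224-112938473, plus strand): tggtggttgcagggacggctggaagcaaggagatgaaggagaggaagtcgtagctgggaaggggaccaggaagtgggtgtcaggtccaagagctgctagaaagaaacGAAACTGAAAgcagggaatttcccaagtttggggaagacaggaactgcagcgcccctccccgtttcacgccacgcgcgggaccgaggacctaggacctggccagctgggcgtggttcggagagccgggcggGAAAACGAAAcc
IFITM3 (chr11:320861-321110, minus strand): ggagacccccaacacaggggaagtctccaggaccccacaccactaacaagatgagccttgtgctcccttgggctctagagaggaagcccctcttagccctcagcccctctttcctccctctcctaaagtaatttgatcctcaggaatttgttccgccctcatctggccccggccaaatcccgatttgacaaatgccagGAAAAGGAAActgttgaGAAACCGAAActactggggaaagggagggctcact
CFB (chr6:31945845-31946094, plus strand): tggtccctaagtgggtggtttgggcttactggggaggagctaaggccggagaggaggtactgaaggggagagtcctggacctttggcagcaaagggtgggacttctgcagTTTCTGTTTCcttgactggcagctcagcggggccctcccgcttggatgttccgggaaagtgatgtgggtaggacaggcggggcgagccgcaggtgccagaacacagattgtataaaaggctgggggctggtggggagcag
IFI6 holds 3 matches, OAS3 and IFITM3 hold 2 each, and CFB holds 1 in the opposite orientation. The match nearest to the start ends 3 bases before it in OAS3, 26 in IFITM3, 84 in IFI6 and 131 in CFB. A promoter was given for 81 of the 109 members. The ISRE core was found in 6 of 51 higher members (11.76%), which also include SLC38A4 and CEACAM1, in 0 of 30 lower members, and in 377 of 14250 named genes (2.65%). The AP-1 motif TGANTCA, read on both strands, was found in 1 of 51 higher members (1.96%, SRPX2), in 3 of 30 lower members (10.0%, GJA1, TDO2 and KCNJ16) and in 722 of 14250 genes (5.07%). No match of one motif can be a match of the other. These matches describe the letters of the windows.

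The members are a small part of what differed in resistant cells and a large part of what differed in withdrawal cells. Among genes that reached 8 in some state, 631 were at least 1 higher and 504 at least 1 lower in resistant than in parental cells (3.57% and 2.85% of all genes), against 111 and 60 in withdrawal cells (0.628% and 0.339%). The 109 members make up 9.6% of the resistant genes and 63.74% of the withdrawal genes. A further 95 genes passed both size limits and stayed under the level of 8. The median difference of the higher members was 2.49 in resistant and 1.35 in withdrawal cells, and that of the lower members -2.38 and -1.31, beside -0.03 and -0.02 over all genes. Both differences are taken from the same 3 parental arrays. The 3 resistant arrays did not overlap the 3 parental arrays for 109 of 109 members (39.9% of all genes), nor did the withdrawal arrays for 107 of 109 (23.4% of all genes). The 2 members with overlap were IFI6 and FAM120C. The rule chose members for such differences on these same arrays, so the medians and the lack of overlap largely follow from it.

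**Figure D1:**
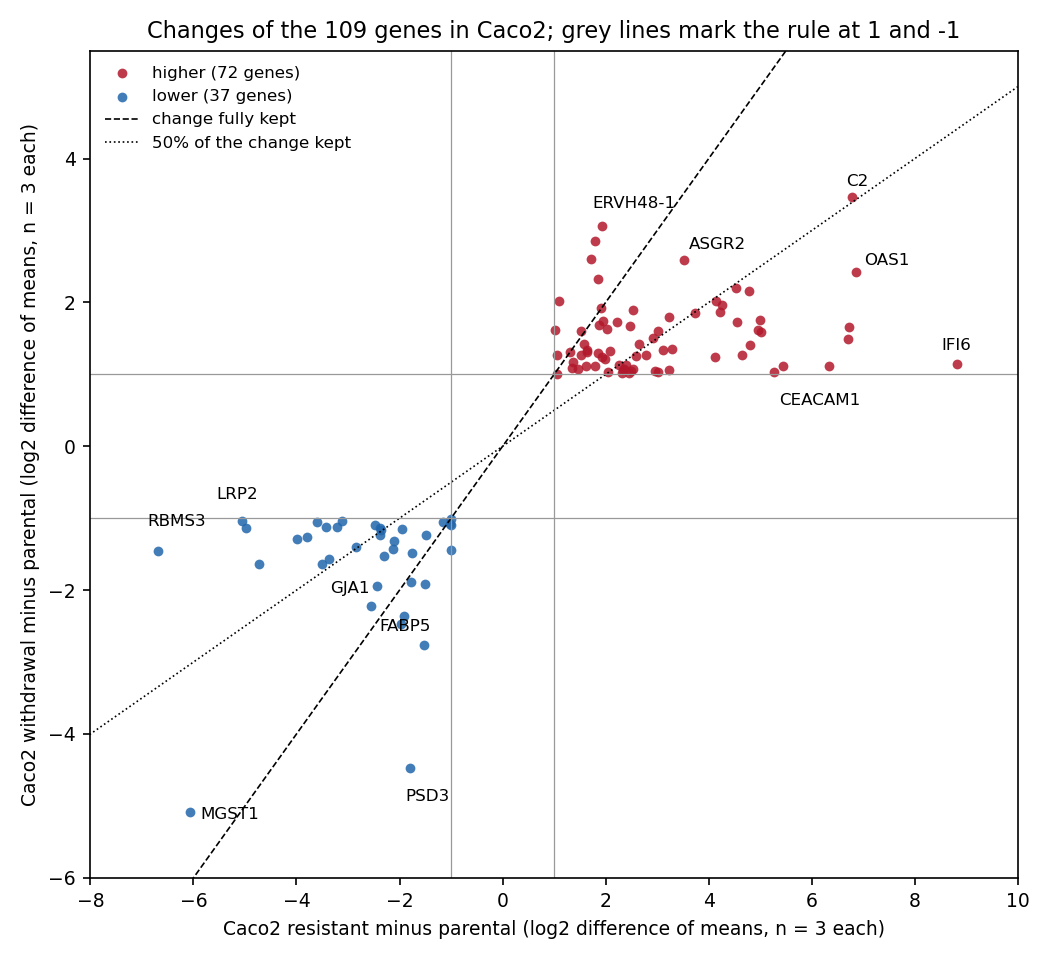
Each point is a member, placed by its log2 difference from parental Caco2 cells in resistant cells (horizontal) and in withdrawal cells (vertical), both differences of means of 3 arrays. The 51 members under 50% kept lie closer to the horizontal axis than the dotted line, and the 19 with 100% or more kept, PSD3 and ERVH48-1 among them, lie on or beyond the dashed line.

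The share of the resistant difference that was still present in withdrawal cells, here called the share kept, had a median of 51.69% over the members. The rule asks for a withdrawal difference of at least 1, so a member with a small resistant difference cannot have a low share. Shares of members and roles therefore depend in part on the size of the resistant difference. For members with a state near background the share depends on dim values, as for its lowest value, 12.98% for IFI6, and its highest, 249.21% for PSD3. Over the 43 members above background in all 3 states the median was 63.41%, and the share ran from 19.56% for CEACAM1 to 160.65% for CTSH. It was under 50% for 51 members, 50 to 75% for 21, 75 to 100% for 18 and 100% or more for 19. Higher members kept a median of 50.66% and lower members 62.54%, an order that turned round over those above background in all states, with 68.36% for 34 higher and 47.56% for 9 lower members. The parental mean was near background for 38 of the 72 higher members and for 0 of the 37 lower members. For 20 higher members the withdrawal mean was near background too, so their difference after withdrawal is one between dim values and has no fold. Among these 20 are TMT1A, ADH4, CYLD, ALDH3A1, HLF, PGC, FAXDC2, FAM120C, B4GALNT2 and IFITM2. Among the lower members, the resistant mean was near background for 25 and the withdrawal mean for 22.

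The 11 interferon-induced and immune genes kept a median of 34.25% of their resistant difference, with 7 parental and 6 withdrawal means near background. The 4 of them above background in all states kept a median of 41.04%. IFI6, a mitochondrial protein induced by interferon, read 13.74, 13.75 and 13.92 on resistant arrays, 5.27, 6.83 and 6.28 on withdrawal arrays and 4.28, 5.14 and 5.52 on parental arrays. The resistant arrays stood far above both other groups, which overlapped each other near background, and the resistant level was at least 66.2-fold the parental one. OAS1, which makes the 2-5A signal that activates RNase L, read 11.80, 11.995 and 11.73 in resistant, 7.43, 7.76 and 7.02 in withdrawal and 5.20, 5.55 and 4.18 in parental cells. The 3 groups of OAS1 did not overlap, although withdrawal and parental values both lay near background. Its neighbour and paralog OAS3 read 12.84, 12.79 and 12.72 in resistant, 7.95, 7.69 and 7.05 in withdrawal and 6.14, 6.33 and 5.75 in parental cells, the same order with the lower groups again near background. IFITM3, a membrane protein that blocks virus entry, read 13.52, 13.28 and 13.72 in resistant, 10.49, 10.49 and 11.05 in withdrawal and 9.01, 8.76 and 9.09 in parental cells. It stayed above background in all states without overlap, 23.4-fold above parental in resistant and 3.30-fold in withdrawal cells. Its paralog IFITM2 was 3.22 higher in resistant and 1.06 higher in withdrawal cells, and the probe sets of these similar genes may cross-read.

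CEACAM1, an adhesion molecule that is also an inhibitory ligand for NK cells, read 14.60, 14.83 and 14.60 in resistant, 10.42, 10.41 and 10.49 in withdrawal and 9.44, 9.17 and 9.63 in parental cells. Its withdrawal arrays lay just above the parental ones and far below the resistant ones, a 38.5-fold and a 2.04-fold excess over parental cells. NCR3LG1 (B7-H6), a ligand of the NK activating receptor NKp30, was the only lower member of this role, with 9.50, 9.61 and 9.12 in resistant, 10.67, 10.86 and 10.85 in withdrawal and 11.99, 11.93 and 11.76 in parental cells. The withdrawal values of NCR3LG1 lay between the other groups without overlap, 2.14-fold below parental cells after withdrawal and 5.59-fold below in resistant cells. LYZ, the antibacterial lysozyme, read 13.45, 13.38 and 13.35 in resistant, 11.14, 11.21 and 10.86 in withdrawal and 8.98, 8.80 and 8.81 in parental cells, 23.1-fold and 4.61-fold above parental. CD74, the invariant chain of HLA class II, was 5.44 higher in resistant cells and 1.12 higher in withdrawal cells, where it lay near background. CSF1, a macrophage growth factor, was 3.02 and 1.03 higher, and CYLD, a deubiquitinase that restrains NF-kappaB, was 1.98 and 1.22 higher. Leukocytes also express LYZ and CD74, and the part of NK cell RNA in the resistant values was not tested. In withdrawal cells the NK markers other than IL2RG were near background.

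**Figure D2:**
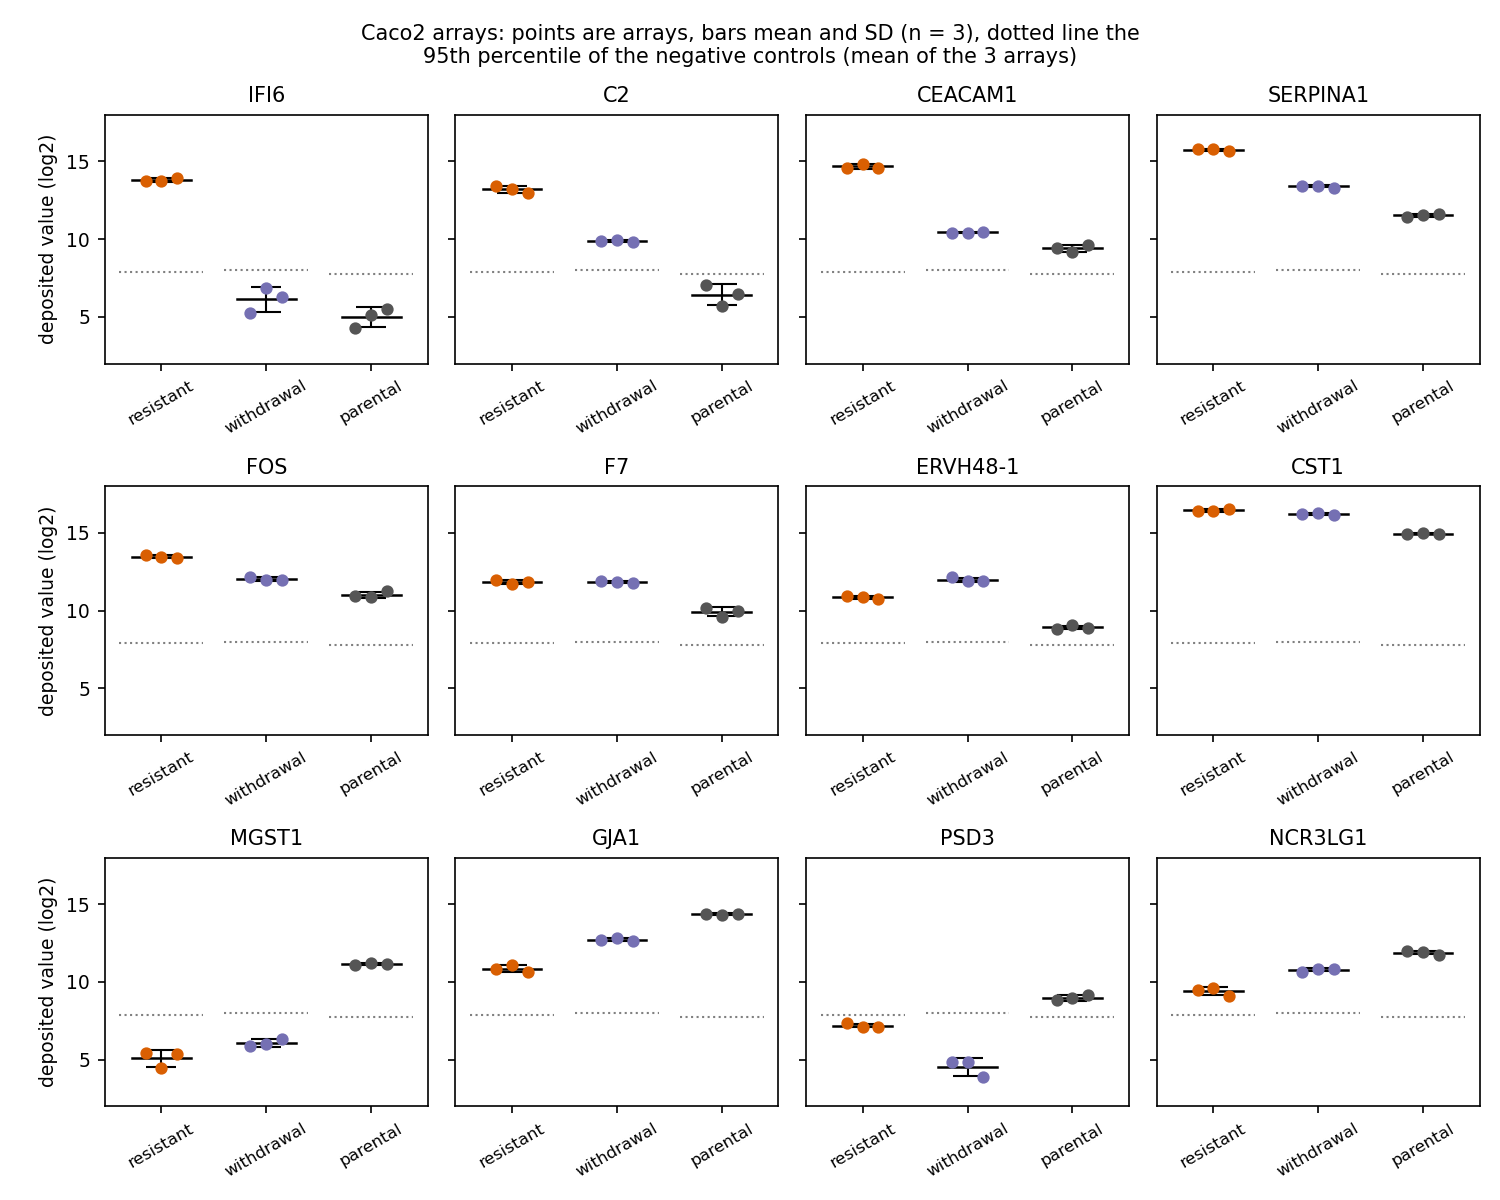
Deposited log2 values of 12 members on the 9 Caco2 arrays, in resistant, withdrawal and parental cells from left to right, with the mean and SD of 3 arrays and the background level of each state as a dotted line. IFI6 is high only on resistant arrays (13.80 against 6.12 and 4.98 in the other states), ERVH48-1 is highest on withdrawal arrays (11.98), and MGST1 is near background in resistant and withdrawal cells.

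Secreted plasma and complement proteins formed an 11-gene role in which every member was higher, by 1.47 to 6.77 in resistant and 1.08 to 3.47 in withdrawal cells. C2, the protease of the classical complement convertase, read 13.42, 13.22 and 12.94 in resistant, 9.89, 9.95 and 9.84 in withdrawal and 7.06, 5.71 and 6.50 in parental cells. Parental C2 was near background, withdrawal C2 was clearly above it, and the levels were at least 43.4-fold and at least 4.40-fold the parental one. CFB, its alternative-pathway counterpart and neighbour in the genome, read 12.76, 12.66 and 12.48 in resistant, 10.99, 10.78 and 10.85 in withdrawal and 9.14, 9.59 and 9.86 in parental cells. The CFB groups were separate, at 8.61-fold and 2.54-fold above parental. C1S, a protease of the first complement component, was 6.33 higher in resistant cells and kept 17.73% of that, back near background.

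SERPINA1 (alpha-1-antitrypsin), an inhibitor of neutrophil elastase, read 15.78, 15.80 and 15.66 in resistant, 13.43, 13.44 and 13.32 in withdrawal and 11.44, 11.54 and 11.59 in parental cells. It was bright in all 3 states and the arrays of each state were tightly grouped, 18.7-fold above parental in resistant and 3.66-fold in withdrawal cells. APOC3, an apolipoprotein that slows the clearance of triglyceride-rich particles, read 13.69, 13.83 and 13.94 in resistant, 11.82, 11.67 and 11.65 in withdrawal and 10.27, 9.37 and 9.43 in parental cells. The parental APOC3 arrays spread most, and the groups still did not overlap (17.5-fold and 4.07-fold). F7, coagulation factor VII, read 11.95, 11.69 and 11.85 in resistant, 11.88, 11.85 and 11.79 in withdrawal and 10.18, 9.61 and 9.98 in parental cells. Resistant and withdrawal values of F7 overlapped, both well above parental, so that 100.55% of its difference was kept.

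The other plasma protein genes kept between 27.27% and 74.75% of their resistant difference. KNG1 (kininogen, the source of bradykinin) was 2.53 higher in resistant and 1.89 higher in withdrawal cells. APOH (beta-2-glycoprotein I) was 1.47 and 1.08 higher, and SERPINF1, the antiangiogenic factor PEDF, 3.74 and 1.86 higher. PROC, the anticoagulant protein C zymogen, was 4.79 and 2.16 higher, with withdrawal and parental values near background. ORM1, the acute-phase protein orosomucoid, was 4.64 and 1.27 higher, and its probe set may also read its close paralog.

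The role of liver-type receptors, transport and metabolism held 10 members, 9 higher and 1 lower, with a median share kept of 59.52%. ASGR2, a subunit of the asialoglycoprotein receptor that clears desialylated glycoproteins, read 11.44, 11.63 and 11.47 in resistant, 10.74, 10.32 and 10.68 in withdrawal and 8.03, 7.78 and 8.16 in parental cells. These groups did not overlap, and ASGR2 was above parental cells by 11.5-fold in resistant and by 6.03-fold in withdrawal cells. ASGR1, the other subunit, encoded next to it, read 9.68, 9.45 and 9.57 in resistant, 8.38, 8.25 and 7.84 in withdrawal and 6.43, 6.76 and 6.48 in parental cells, at least 3.51-fold and at least 1.32-fold the parental level. SLC10A1, the bile acid importer NTCP, read 9.50, 9.35 and 9.67 in resistant, 8.06, 8.06 and 8.09 in withdrawal and 6.46, 6.01 and 6.34 in parental cells. Withdrawal SLC10A1 sat just above background and apart from both other groups.

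MAT1A, the liver methionine adenosyltransferase, was 5.0003 higher in resistant and 1.76 higher in withdrawal cells. STRA6, the receptor for retinol-binding protein, was 5.01 and 1.58 higher, and DIO1, a deiodinase that activates thyroid hormone, 2.64 and 1.42 higher; these genes were near background in both withdrawal and parental cells. TTPA, the vitamin E transfer protein, was 2.09 and 1.32 higher, SLC38A4, an amino acid transporter, 1.87 and 1.68, and RGN (regucalcin) 1.61 and 1.12, all of them above background in each state. TDO2, which starts tryptophan breakdown, was the lower gene, by -2.13 in resistant and -1.43 in withdrawal cells.

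Detoxification enzymes were members in both directions, 6 higher and 2 lower. MGST1, a membrane-bound glutathione transferase, read 5.45, 4.48 and 5.34 in resistant, 5.86, 6.02 and 6.36 in withdrawal and 11.08, 11.24 and 11.17 in parental cells. Both the resistant and the withdrawal arrays were near background and the parental arrays far above it, at least 9.71-fold and at least 9.02-fold lower than parental, so that 83.71% of the log2 difference was kept. MT1X, a metallothionein that binds zinc and copper, read 8.66, 7.90 and 8.40 in resistant, 8.18, 7.50 and 7.76 in withdrawal and 10.44, 10.11 and 10.30 in parental cells, with resistant and withdrawal arrays overlapping below the parental ones. TMT1A, a thiol methyltransferase, was 6.73 higher in resistant cells and kept 24.72% of that, while ADH4, an alcohol dehydrogenase, was 4.96 higher and kept 32.72%. GSTA1, a liver-type glutathione transferase, was 2.78 and 1.27 higher in resistant and withdrawal cells, CYP3A5, a drug-oxidising cytochrome, 2.25 and 1.12, AKR1C1, a ketosteroid reductase, 1.86 and 1.30, and ALDH3A1, an aldehyde dehydrogenase, 1.80 and 1.12. MT1X, AKR1C1 and GSTA1 belong to families of near-identical genes that the probe sets may not separate.

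The 4 immediate-early transcription factors among the members were all higher and kept between 41.06% and 46.03% of their resistant difference. FOS read 13.55, 13.44 and 13.40 in resistant, 12.15, 11.95 and 11.99 in withdrawal and 10.94, 10.85 and 11.23 in parental cells. JUN, its AP-1 partner, read 13.73, 14.30 and 13.99 in resistant, 12.39, 12.65 and 12.63 in withdrawal and 11.62, 11.64 and 11.26 in parental cells. FOSB read 11.68, 11.72 and 11.34 in resistant, 9.73, 9.62 and 9.57 in withdrawal and 8.56, 8.13 and 8.19 in parental cells. In these genes the states were ordered resistant, withdrawal, parental from high to low with no overlap, and withdrawal cells stood above parental cells by 2.04-fold for FOS, 2.07-fold for JUN and 2.55-fold for FOSB. EGR3 was 4.27 higher in resistant cells and 1.96 higher in withdrawal cells, where it lay near background as in parental cells.

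The 3 salivary-type cystatins, inhibitors of cysteine proteases that lie side by side on chromosome 20, kept a median of 79.56%. CST1 read 16.38, 16.43 and 16.53 in resistant, 16.18, 16.25 and 16.16 in withdrawal and 14.93, 14.96 and 14.89 in parental cells. CST4 read 13.79, 13.70 and 13.72 in resistant, 13.34, 13.25 and 13.15 in withdrawal and 11.54, 11.52 and 11.49 in parental cells. CST1 and CST4 showed no overlap between states and withdrawal levels 2.41-fold and 3.31-fold above parental. CST2 was 1.64 and 1.31 higher, with resistant and withdrawal arrays overlapping. Because the 3 genes are close paralogs, cross-reading between their probe sets was not tested.

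Lower members with high parental levels included the gap junction protein connexin 43 (GJA1), the neuropeptide galanin (GAL) and the ubiquitin hydrolase UCHL1. GJA1 read 10.81, 11.11 and 10.67 in resistant, 12.71, 12.82 and 12.63 in withdrawal and 14.40, 14.31 and 14.38 in parental cells. UCHL1 read 10.81, 10.88 and 10.95 in resistant, 12.86, 12.57 and 12.65 in withdrawal and 14.22, 14.25 and 14.31 in parental cells. GAL read 8.43, 8.55 and 8.55 in resistant, 10.86, 10.70 and 10.87 in withdrawal and 12.04, 11.86 and 11.88 in parental cells. All 3 were above background in every state, with withdrawal arrays between the others and nearer to the parental ones. GJA1 was lower than parental by 11.3-fold in resistant and 3.12-fold in withdrawal cells, UCHL1 by 10.4-fold and 2.96-fold, and GAL by 10.7-fold and 2.17-fold. LRP2, the endocytic receptor megalin, read 6.93, 7.34 and 7.02 in resistant, 11.29, 11.04 and 11.04 in withdrawal and 12.22, 12.14 and 12.12 in parental cells. Only its resistant arrays were near background, and it kept the smallest share among lower members, 20.47%. RBMS3, an RNA-binding protein, read 2.33, 2.46 and 3.63 in resistant, 8.02, 7.86 and 8.23 in withdrawal and 9.24, 9.29 and 9.95 in parental cells, likewise with resistant values below background and withdrawal values between the others, above background.

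FABP5, a fatty acid carrier, read 8.27, 8.35 and 9.12 in resistant, 8.84, 8.99 and 8.87 in withdrawal and 11.30, 10.93 and 11.15 in parental cells. Its resistant and withdrawal arrays overlapped, at 5.84-fold and 4.67-fold below parental. PSD3, an exchange factor for the trafficking GTPase ARF6, read 7.33, 7.13 and 7.13 in resistant, 4.87, 4.83 and 3.86 in withdrawal and 8.81, 8.99 and 9.19 in parental cells. Withdrawal arrays were the lowest for PSD3, and since resistant and withdrawal means were both near background, the folds are bounds of at least 2.16 and at least 2.01. TTYH2, an anion channel, read 8.18, 8.47 and 8.77 in resistant, 8.03, 8.43 and 8.64 in withdrawal and 10.29, 10.16 and 10.32 in parental cells, and resistant and withdrawal arrays overlapped.

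**Figure D3:**
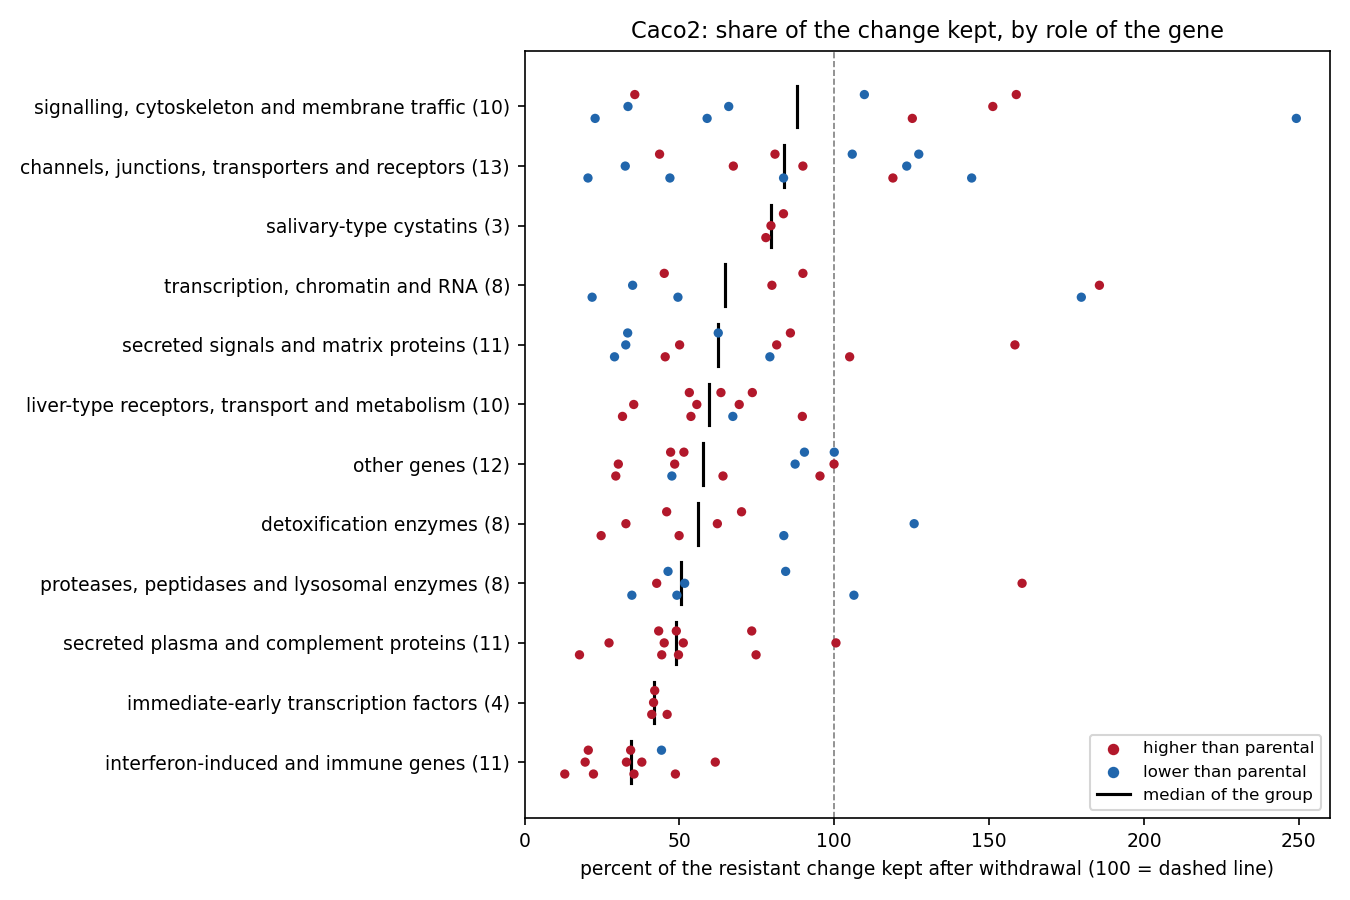
Percent of the resistant difference from parental Caco2 cells that was still present in withdrawal cells, 1 point per member, grouped by role with the number of genes in brackets and the median of each role as a bar. Medians run from 34.25% for interferon-induced and immune genes to 87.82% for signalling, cytoskeleton and membrane traffic, and include members with states near background. The rule keeps the share high for members with a small resistant difference, so the order of roles is partly set by it.

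Several members stood further from parental cells after withdrawal than before it. ERVH48-1 (suppressyn), a retroviral envelope-derived inhibitor of cell fusion, read 10.92, 10.90 and 10.74 in resistant, 12.13, 11.93 and 11.88 in withdrawal and 8.82, 9.05 and 8.88 in parental cells. Withdrawal arrays lay above resistant arrays, which lay above parental arrays, at 8.36-fold and 3.82-fold over parental. ANXA6, a calcium-dependent membrane binder, read 10.05, 9.99 and 10.10 in resistant, 10.39, 10.73 and 10.43 in withdrawal and 8.13, 8.29 and 8.16 in parental cells, in the same order. CTSH, the lysosomal protease cathepsin H, was 1.01 higher in resistant and 1.62 higher in withdrawal cells. MAP3K21, a kinase, RIPOR2, a RhoA inhibitor, and TOX3, a nuclear factor, were 1.80, 1.72 and 1.09 higher in resistant and 2.86, 2.61 and 2.02 higher in withdrawal cells. Parental values of MAP3K21, RIPOR2 and TOX3 were near background, and so was the resistant mean of MAP3K21.

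The remaining secreted and matrix genes kept from 29.04% to 104.97% of their difference. CHI3L1, a chitinase-like glycoprotein, read 14.97, 14.97 and 14.93 in resistant, 14.63, 14.65 and 14.69 in withdrawal and 13.24, 13.42 and 13.30 in parental cells, 3 groups without overlap. NKD1, a feedback inhibitor of WNT signalling, was 1.37 and 1.18 higher in resistant and withdrawal cells, SRPX2 1.52 and 1.60, INHBB, an activin subunit, 2.36 and 1.07, and OLFML3 2.05 and 1.03. SOSTDC1, a BMP and WNT antagonist, differed by -3.79 and -1.26, the neurotrophic factor NDNF by -2.44 and -1.94, the collagen prolyl hydroxylase P3H3 by -2.10 and -1.31, and COCH by -3.60 and -1.05.

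Among channels, junctions and receptors, HTR1D, a serotonin receptor, read 11.31, 11.51 and 11.41 in resistant, 10.43, 10.66 and 10.72 in withdrawal and 8.996, 8.69 and 9.11 in parental cells, again in separate groups. The water and glycerol channel AQP3 was 1.58 and 1.42 higher, the potassium channel KCNK10 1.35 and 1.09, the channel CALHM5 1.06 and 1.26, and the tight junction protein CLDN19 2.32 and 1.01. Lower members of this role were SLC18B1 (-1.92 in resistant and -2.36 in withdrawal cells), the lactate receptor HCAR1 (-1.50 and -1.91), the potassium channel KCNJ16 (-3.98 and -1.29), the opsin OPN3 (-1.48 and -1.24) and LYPD6B (-1.0013 and -1.4455).

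Of the nuclear factors, RORA, a receptor of the circadian clock, was 2.04 higher in resistant and 1.63 higher in withdrawal cells, ZNF385A 1.94 and 1.75, and HLF, a liver-enriched bZIP factor, 2.35 and 1.06. The estrogen-related receptor ESRRG differed by -3.20 and -1.12, the histone H3 methyltransferase NSD1 by -2.36 and -1.17, and ZNF680 by -1.53 and -2.76. PLEKHA2 was the remaining higher signalling gene (2.95 and 1.05). CDK14 (-2.30 and -1.52), STK32B (-4.98 and -1.14), PALD1 (-1.96 and -1.16), HIP1 (-3.12 and -1.04) and FILIP1L (-1.0029 and -1.1003) were lower. Among enzymes of the protease and lysosome role, PGC (pepsinogen C) was 2.54 and 1.08 higher. PLBD1 (-4.73 and -1.64), GLB1L2 (-2.85 and -1.40), PCYOX1L (-2.38 and -1.23), IMMP2L (-1.76 and -1.48) and NPEPL1 (-1.02 and -1.09) were lower.

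The 12 genes without a shared role included FAXDC2, 4.79 higher in resistant and 1.41 higher in withdrawal cells, and B4GALNT2, which makes the Sda blood group antigen, 4.12 and 1.25 higher. TMEM185A was 2.93 and 1.51 higher, C1orf115 2.59 and 1.25, FAM120C 2.39 and 1.13, TCP11L2 1.93 and 1.24, ENOX2 1.31 and 1.31, and PBDC1 1.06 and 1.01. FAM171A1 (-2.38 and -1.13), CMTM3 (-1.16 and -1.05) and WDR72 (-1.01 and -1.01) were lower.

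Near the limits of the rule, the closest genes inside among the higher ones were CTSH, PBDC1 and CLDN19. Just outside lay HSD3B1 (3.50 in resistant and 0.99 in withdrawal cells), PDP1 (0.99 and 1.28) and C3orf70 (1.77 and 0.98). On the lower side LYPD6B, FILIP1L and WDR72 were just inside, and ZNF485 (-1.35 and -0.99), PTP4A3 (-1.28 and -0.97) and SEL1L3 (-1.65 and -0.95) just outside.

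Some members neighbour each other in the genome. On the same chromosome and at most 5 measured genes apart lay 10 pairs of members involving 14 genes, and in all 10 both genes were higher. These were IFITM2 with IFITM3, OAS1 with OAS3, ASGR1 with ASGR2, C2 with CFB, the 3 cystatins among themselves, and NKD1, CYLD and TOX3 on chromosome 16. Chromosome 12 held 12 members (11.01% of members, 5.25% of genes), and all 6 members on chromosome X were higher.

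Against 25 gene lists, 25 members were in at least 1 list and 84 in none. The counts that follow leave out the members, which were chosen on these arrays. Leaving them out takes away list genes chosen for a difference after withdrawal, so the withdrawal counts of the rest do not describe whole lists. The shares of all genes include the members. Of the other 44 type I interferon genes, 36 rose in resistant Caco2 cells by the limma fit at an adjusted p under 0.05, where 12.9% of all genes rose and 14.5% fell. In withdrawal cells 1 rose and 1 fell, beside 2.73% and 2.54% of all genes. The median of these 44 was 3.04 in resistant and 0.10 in withdrawal cells. The list's 5 members are OAS1, IFITM3, OAS3, IFI6 and IFITM2. Of 29 interferon gamma and GBP genes, 22 rose in resistant and 0 in withdrawal cells by limma (1 at an unadjusted p under 0.05). Of 17 class I antigen presentation genes 16 rose in resistant cells, and in withdrawal cells 0 rose (2 unadjusted) and 1 fell by limma. Neither of these lists holds a member. Of 42 other lipoprotein and plasma protein genes, 30 rose and 1 fell in resistant cells and 5 rose in withdrawal cells, with medians of 1.53 and 0.14. The list's 5 members are APOC3, KNG1, SERPINA1, CFB and APOH. Of 24 other MAPK and AP-1 genes, 8 rose and 9 fell in resistant cells, and in withdrawal cells 0 rose (2 unadjusted) and 3 fell by limma. The medians were -0.02 and -0.11, and the members are EGR3, FOSB, JUN and FOS. Of 58 other detoxification genes, 25 rose and 12 fell in resistant cells and 3 rose and 9 fell in withdrawal cells, with medians of 0.44 and 0.10, and MT1X, ADH4, AKR1C1, GSTA1 and ALDH3A1 are members. Single members were in the class II (CD74), WNT (NKD1), junction (GJA1) and NF-kappaB (CSF1) lists, CEACAM1 and NCR3LG1 were in the list of NK receptor ligands, and the other 16 lists, such as the 48 enterocyte and the 35 cell cycle genes, held none.

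The rule fixes that every member was above background in Caco2, so detection is described only in the other lines. Above background in at least 1 state of LIM1215 were 36 of the 72 higher and 25 of the 37 lower members (53.88% of all genes), and in SW48 25 and 20 (50.03% of all genes). A total of 44 members were near background in every group of both lines. Tests used limma's moderated fit with Benjamini-Hochberg adjustment over all 17687 genes, and genes with an adjusted p under 0.05 are called changed.

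In LIM1215, 25 of 109 members differed between resistant and parental cells, 11 higher and 14 lower, against 10.8% of all genes (5.42% higher and 5.39% lower). Of these, 17 went in the Caco2 direction and 8 in the other. Among members above background in at least 1 of the groups compared, 19 of 60 were called (31.67%), against 14.2% of all such genes. Without parental replicate 3 the count was 29, 14 higher and 15 lower, against 14.7% of all genes. The arrays of both groups did not overlap for 42 members (23.7% of all genes).

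CD74 rose most in LIM1215, with 11.81, 12.11 and 12.15 in resistant and 4.99, 5.27 and 4.77 in parental cells. Parental CD74 was near background and resistant CD74 far above it, by 7.02 (standard error of the fit, SE, 0.24, limma adjusted p = 4.43e-16), at least 25.5-fold. CFB read 12.49, 12.93 and 12.54 in resistant and 7.14, 6.96 and 10.15 in parental LIM1215 cells. All resistant CFB arrays were above all parental ones, of which replicate 3 was the highest, and the change was 4.57 (SE 0.47, limma adjusted p = 1.74e-07) with that array and 5.60 without it. CSF1 rose by 2.10 (SE 0.19, limma adjusted p = 2.79e-08), a 4.29-fold change. TMT1A rose by 2.47, at least 4.92-fold, and AKR1C1 by 1.75, at least 2.07-fold. SLC38A4, KNG1, SERPINA1 and C1S also passed, by 1.44, 0.77, 0.75 and 0.82, with both groups near background, and so did CYLD (0.51), PLBD1 (0.67) and, in the lower direction, MT1X (-0.62), GLB1L2 (-0.82), PALD1 (-0.60) and HCAR1 (-0.96), the last between dim values. CYLD, C1S, PALD1 and PLBD1 did not pass without parental replicate 3.

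Several genes that were higher in Caco2 fell in resistant LIM1215 cells. AQP3 read 6.85, 5.44 and 6.81 in resistant and 9.54, 9.56 and 9.17 in parental cells, a fall to near background of at least 3.20-fold (limma adjusted p = 1.55e-07). ALDH3A1 fell by 1.67 on the log2 scale, ANXA6 by 1.65, RORA by 1.57 and CTSH by 0.66, and FAXDC2, near background in both groups, by 1.22. CYP3A5 fell by 2.47 to near background, from parental values too dim for a fold. UCHL1, GAL and FILIP1L fell as in Caco2. GAL read 9.37, 9.46 and 9.42 in resistant and 11.41, 11.46 and 10.34 in parental cells, lower on every resistant array, by 1.65 on the log2 scale (SE 0.22, limma adjusted p = 6.68e-06). UCHL1 differed by -1.42, with resistant values near background, and FILIP1L by -1.71.

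Interferon genes of LIM1215 depended on parental replicate 3. IFI6 read 14.65, 14.85 and 14.54 in resistant and 12.99, 12.99 and 16.07 in parental cells, where replicate 3 was higher than all resistant arrays and the others lower. With that array the IFI6 change was 0.66 (limma adjusted p = 0.551), and without it 1.69 (limma adjusted p = 0.00226). OAS3 likewise changed by 0.31 with it and by 1.15 without it, and EGR3, JUN and CEACAM1 passed only without it, by 1.03, 1.01 and 0.95. Also only without it, PSD3 rose by 1.24, and APOH and LYZ fell by 1.39 and 1.05 on the log2 scale. With all arrays, 9 of the 49 type I interferon genes rose and 1 fell in resistant LIM1215 cells, beside 5.42% and 5.39% of all genes. A count of this list without parental replicate 3 is not given. NK and leukocyte markers above background numbered 17 of 31 in resistant, 2 in withdrawal and 2 in parental LIM1215 cells, with summed log2 values of 230.7 to 240.5, 131.4 to 134.6 and 128.6 to 133.2, and their part in these values was not tested.

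After withdrawal, 33 members differed from parental LIM1215 cells, 13 higher and 20 lower, against 21.1% of all genes (9.89% higher and 11.2% lower), 17 of them in the Caco2 direction and 16 in the other. Among members above background in either group 23 of 58 were called (39.66%), against 33.4% of all such genes. Without parental replicate 3, 37 were called, 16 higher and 21 lower, against 28.4% of all genes. The 3 withdrawal arrays did not overlap the parental ones for 47 members (31.6% of all genes).

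All 4 immediate-early factors rose after withdrawal in LIM1215. FOSB read 10.25, 10.54 and 10.85 in withdrawal and 6.34, 7.06 and 9.95 in parental cells. FOS read 14.83, 14.72 and 14.93 in withdrawal and 13.04, 13.15 and 14.80 in parental cells. Parental replicate 3 was close to the withdrawal arrays for both genes and overlapped them for FOS. The changes were 2.77 for FOSB (SE 0.54, limma adjusted p = 7.76e-04), 2.13 for EGR3, 1.16 for FOS and 1.11 for JUN, and without that array 3.85, 3.09, 1.73 and 1.61. EGR3 was near background in both groups. With all arrays, 16 of the 28 MAPK and AP-1 genes, these 4 among them, rose and 1 fell, beside 9.89% and 11.2% of all genes. In resistant LIM1215 cells, again with all arrays, 13 of the 28 fell and 0 rose, beside 5.39% and 5.42% of all genes. The 4 factors were at -0.24 (FOSB), 0.07 (EGR3), -0.10 (FOS) and 0.51 (JUN) there and did not pass. List counts without parental replicate 3 are not given. Without parental replicate 3, FOSB (0.85) and FOS (0.47) turned to the higher side and did not pass, and EGR3 (1.03) and JUN (1.01) rose.

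CYP3A5, CEACAM1 and TCP11L2 rose in withdrawal LIM1215 cells as they were higher in Caco2. CYP3A5 read 9.89, 9.87 and 9.96 in withdrawal and 6.23, 7.46 and 8.48 in parental cells, above every parental array (2.52, SE 0.32, limma adjusted p = 9.34e-06). The changes were 1.41 for CEACAM1 and 2.37 for TCP11L2, with parental replicate 3 nearest to the withdrawal arrays of both, and without that array 2.05 and 3.28. UCHL1, GAL and NCR3LG1 fell as they were lower in Caco2. UCHL1 differed by -2.44 (limma adjusted p = 7.01e-08), GAL by -1.66 and NCR3LG1 by -1.28. UCHL1 was near background after withdrawal, so its fold is only a bound of at least 1.36.

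The cystatins and lysozyme went the other way from Caco2. CST1 read 8.12, 8.40 and 7.80 in withdrawal and 8.76, 9.02 and 10.92 in parental LIM1215 cells, lower on every withdrawal array (-1.46, SE 0.33, limma adjusted p = 0.00294). CST4 fell by 1.30 and CST2, near background in both groups, by 0.73 on the log2 scale, and without parental replicate 3 the differences were -0.78 for CST1, -0.89 for CST4 and -0.57 for CST2, which no longer passed. LYZ fell by 1.78, TTPA by 1.35, CSF1 by 1.32 and ANXA6 by 1.41 on the log2 scale, with LYZ and CSF1 near background after withdrawal. LYPD6B, lower in Caco2, read 11.97, 11.92 and 11.85 in withdrawal and 9.78, 9.83 and 9.94 in parental cells, higher on every withdrawal array, by 2.06 on average (SE 0.27, limma adjusted p = 1.49e-05). FILIP1L rose by 1.60. CFB, at 0.54 with all arrays, rose by 1.57 without parental replicate 3, and OAS1, at -0.13 with all arrays, by 0.81. Passing only without that array, FABP5 (-0.60), SLC18B1 (-0.75) and, between dim values, CMTM3 (-1.28) fell, and NDNF (0.96) and PSD3 (0.95) rose. Also passing with all arrays were ASGR2 (0.72), F7 (1.19), KCNK10 (0.93) and HLF (0.96), which were higher between dim values, and SLC38A4 (-0.91), APOH (-1.26), RIPOR2 (-0.71) and HCAR1 (-0.63), lower between dim values. IFITM2 (-0.87), IFITM3 (-0.58), MAP3K21 (-0.59), CTSH (-0.51), GLB1L2 (-0.96) and OPN3 (-0.96) fell above background, and ASGR2 and IFITM3 did not pass without replicate 3.

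In SW48, 27 members differed between resistant and parental cells, 15 higher and 12 lower, against 22.7% of all genes (10.9% higher and 11.8% lower), 19 in the Caco2 direction and 8 in the other. Among members above background in either group 22 of 45 were called (48.89%), against 38.6% of all such genes. Over all members the share was thus near that of all genes. The arrays did not overlap for 46 members (35.5% of all genes).

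CD74 read 13.76, 13.56 and 13.45 in resistant and 3.08, 2.62 and 3.74 in parental SW48 cells. It was bright on every resistant array and near background on every parental one, a rise of 10.44 (SE 0.24, limma adjusted p = 4.28e-19), at least 117-fold. SERPINA1 read 9.07, 9.38 and 9.003 in resistant and 2.06, 2.20 and 1.94 in parental SW48 cells. This was a rise of 7.08 out of background (SE 0.14, limma adjusted p = 2.40e-20), at least 5.38-fold. IFITM3 read 15.57, 15.30 and 15.72 in resistant and 13.18, 13.37 and 13.11 in parental SW48 cells, higher on every resistant array (2.31, SE 0.18, limma adjusted p = 1.08e-09, 4.96-fold). IFITM2 rose by 2.22 and IFI6 by 3.71, at least 1.90-fold. OAS1 rose by 3.59 and CEACAM1 by 3.00, with both groups near background, and OAS3 did not pass at 1.12 (limma adjusted p = 0.0532). The OAS3 arrays did not overlap, with 10.87, 10.23 and 10.59 in resistant and 9.19, 9.53 and 9.60 in parental SW48 cells. LIM1215 parental replicate 3, at 13.46 for OAS3, enters the spread of this test, and its part was not tested. ANXA6 (1.34), CYLD (1.18), CSF1 (0.89), NKD1 (0.70) and CTSH (0.54) rose as well. Of the 49 type I interferon genes 21 rose and 0 fell, beside 10.9% and 11.8% of all genes. NK and leukocyte markers above background numbered 6 of 31 in resistant, 1 in withdrawal and 1 in parental SW48 cells, with summed log2 values of 142.2 to 151.3, 95.8 to 98.3 and 92.4 to 96.0, and their part was not tested.

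Losses in resistant SW48 cells included PSD3, which read 2.38, 2.53 and 3.72 in resistant and 10.69, 10.63 and 10.83 in parental cells. Its resistant arrays were near background and its parental arrays far above, a difference of -7.84 (SE 0.29, limma adjusted p = 2.62e-15), at least 12.4-fold lower, in the Caco2 direction. PBDC1, higher in Caco2, read 4.13, 4.15 and 4.09 in resistant and 9.13, 9.10 and 9.29 in parental SW48 cells. That was a fall of 5.05 on the log2 scale, at least 4.27-fold. LYPD6B differed by -3.24, with parental values too dim for a fold, and WDR72 by -2.65, at least 4.31-fold lower, both as in Caco2. ALDH3A1 fell by 2.85 and RORA, to near background, by 1.98 on the log2 scale, against their Caco2 direction. TTYH2 (-0.78), TDO2 (-0.62), NCR3LG1 (-0.62), and MAP3K21 (-0.53) fell, PGC (-0.59) and CDK14 (-0.91) were lower between dim values, and FAM171A1 (0.62), PALD1 (0.49) and, between dim values, CMTM3 (1.29) rose.

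After withdrawal, 9 members differed from parental SW48 cells, 3 higher and 6 lower, against 4.08% of all genes (1.78% higher and 2.3% lower), and 3 of the 9 went in the Caco2 direction. Among members above background in either group 5 of 42 were called (11.9%), against 7.14% of all such genes, all 5 lower. The count was 4 without parental replicate 1, 5 without parental replicate 2 and 4 without withdrawal replicate 3. The arrays did not overlap for 32 members (22.1% of all genes). ALDH3A1 read 5.15, 4.66 and 5.17 in withdrawal and 10.79, 10.86 and 10.37 in parental cells, a fall to near background on every array of at least 13.8-fold (-5.68, SE 0.25, limma adjusted p = 1.10e-12). SERPINA1 was 1.30 higher with 3.58, 3.25 and 3.29 in withdrawal and 2.06, 2.20 and 1.94 in parental cells, all of them near background. HTR1D (0.87) and GJA1 (1.14) rose between dim values. CYLD (-0.96), WDR72 (-0.91), IFITM2 (-0.67) and CTSH (-0.60) fell, CYLD and IFITM2 to near background, and PGC (-0.71) was lower between dim values. HTR1D, WDR72, PGC and IFITM2 no longer passed when any of 4 single SW48 arrays was left out, withdrawal replicate 3 in each case among them, and GJA1 did not without withdrawal replicate 3. CTSH did not pass without parental replicate 1 or without parental replicate 2. CD74 differed by -0.0029 and IFITM3 by -0.55, and neither passed.

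**Figure D4:**
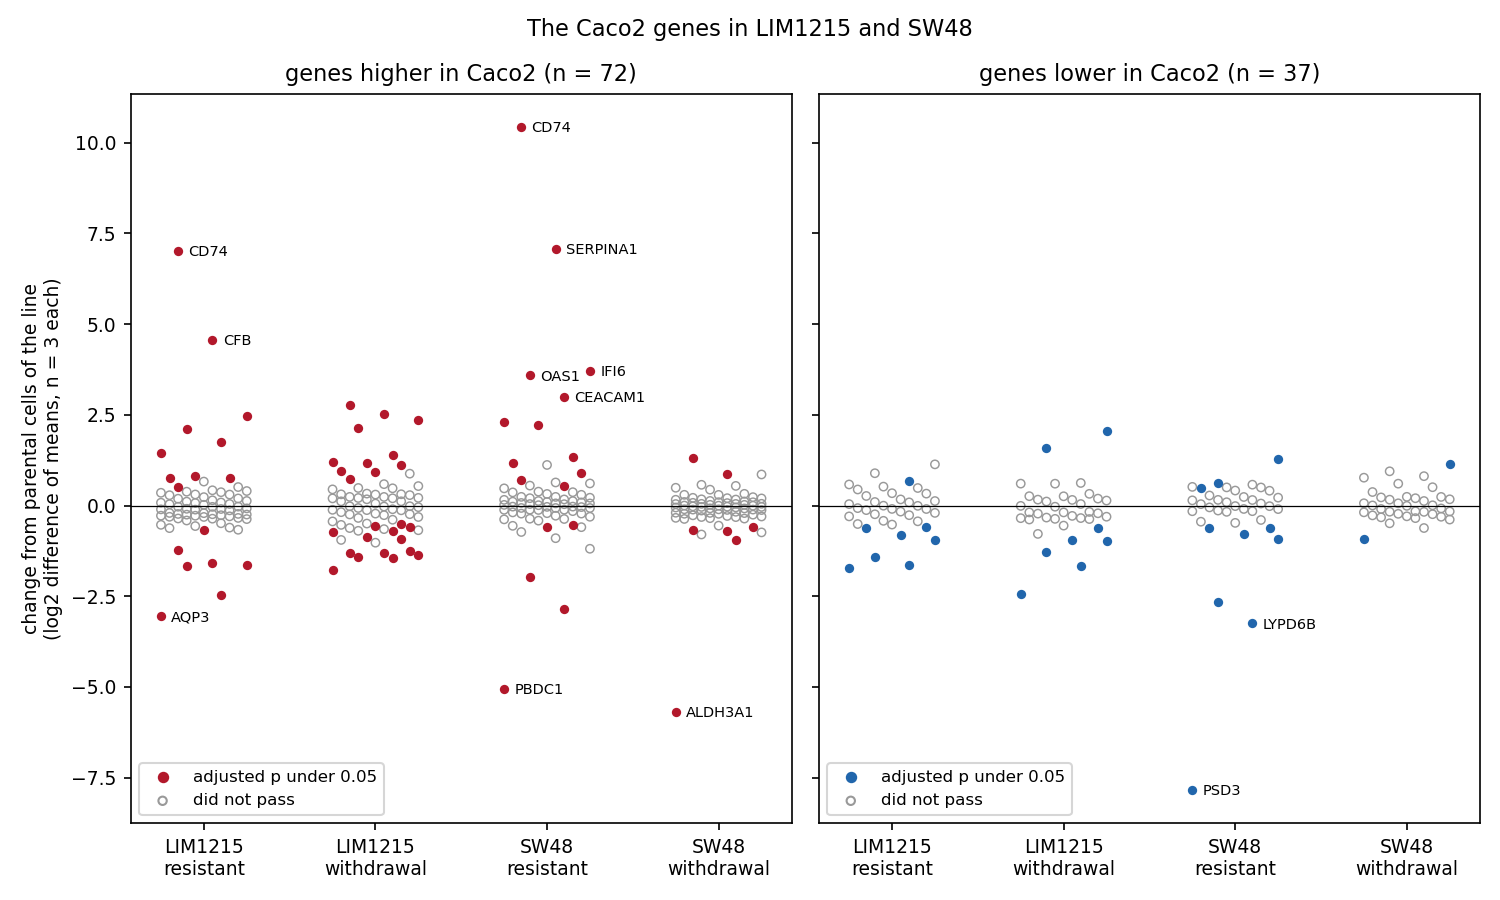
Log2 differences of the members from parental cells in resistant and withdrawal cells of LIM1215 and SW48, with the 72 members higher in Caco2 on the left and the 37 lower ones on the right, filled where the limma test passed. CD74 is high in resistant cells of both lines and near 0 in their withdrawal cells, and most members lie near 0.

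In resistant cells 4 members passed in the Caco2 direction in both lines, SERPINA1, CYLD, CD74 and CSF1, which is 23.5% of the 17 in LIM1215 and 21.1% of the 19 in SW48. SERPINA1 was near background in both LIM1215 groups, and CYLD did not pass in LIM1215 without parental replicate 3 (0.50, limma adjusted p = 0.0618). In withdrawal cells 0 members did so by limma, of 17 in LIM1215 and 3 in SW48, and 0 at an unadjusted p under 0.05. With all arrays, the number that passed in the Caco2 direction in all 4 comparisons was 0, adjusted or not. Also with all arrays, 47 members, 29 higher and 18 lower, passed in none. Calls made only without LIM1215 parental replicate 3 do not enter these counts.

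The change from parental cells differed between SW48 and LIM1215 for 31 members in resistant cells, 19 more positive in SW48 and 12 more negative (18.3% of all genes, 8.67% and 9.6% by direction). It differed for 22 members in withdrawal cells, 11 each way (13.3% of all genes, 6.73% and 6.59%). Without LIM1215 parental replicate 3 the counts were 36 (21.6% of all genes) and 31 (21.8%). The resistant change of SERPINA1 was more positive in SW48 than in LIM1215, by 6.33 (SE 0.19, limma adjusted p = 3.63e-16), and that of CFB less positive, by -3.96 (SE 0.66, limma adjusted p = 1.32e-04). Those of IFITM3 and IFITM2 were more positive in SW48, by 2.12 and 2.56. CFB was near background in every SW48 group and SERPINA1 in every LIM1215 group, so these 2 differences set a change against dim values.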

How the data were processed

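Gene expression was measured on 27 Affymetrix whole-transcript arrays from 250 ng of total RNA each. The authors deposited a table with 1 value per probe set and array, which was read here as log2 intensities from the range of the gene values, 1.5 to 18.19. How these were corrected and normalized is not given in the sources used here. Arrays of a line have similar quartiles of the deposited log2 values and the lines do not, so levels were never set against each other across lines, and the values were used as deposited. Of 24351 probe sets, 2903 are controls and 17709 of the other 21448 were paired with 1 gene through the platform annotation (0 with several, 3739 not listed). Only the brightest probe set was kept of the 20 genes that had several, which left 17687 genes.

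All 9 groups entered a single linear model, fitted by lmFit and eBayes of limma 3.58.1 with 18 residual degrees of freedom and 4.12 from the prior. R was version 4.3.3, tables were read there by the data.table package (1.17.8), and p-values were adjusted by Benjamini-Hochberg within each contrast. All tests were two-sided. Errors are SD over 3 arrays or SE of the fit. A fold against a group near background is a lower bound over the mean background level. None is given where both groups are near background or where the brighter group lies under the background level of the other. Tables and figures were made with Python 3.11.15, pandas 2.3.3, numpy 2.4.6 and matplotlib 3.10.9. The fit was tested on simulated data before use.

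The members, gene lists and tests were chosen with earlier results of these data known, and the roles were assigned once the members were known. Named were the 15 members in each direction with the largest smaller of both Caco2 changes, members of the lists (up to 6 a list), the 5 in each direction with the largest called and non-overlapping change in each contrast of LIM1215 and SW48, the 3 on each side of the rule's limits, families of at least 3, and members called in all 4 contrasts. Every other member is named to account for it, with values seen. Alternatives were quantile normalization, only the compared groups in the fit, eBayes with trend and robust, only genes above background, all transcript probe sets, the replicate number as a block, other limits of the rule, and leaving out each array. Promoters came from RefSeq's GRCh38.p14 table.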

Additional observations from a re-analysis of the deposited data

Results flagged for a closer look

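The change from parental cells differed between SW48 and LIM1215 for the named members below, by the limma contrast of both changes at an adjusted p under 0.05. The deposited values look normalized separately for each line, so only the changes are compared, as SW48 minus LIM1215.

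In resistant cells the change was more positive in SW48 for OAS1 (3.90), SERPINA1 (6.33), AQP3 (3.27), IFI6 (3.05), CYP3A5 (2.68), CD74 (3.43), CEACAM1 (2.70), GAL (1.60) and FILIP1L (2.21). In these cells it was more negative in SW48 for TMT1A (-2.10), CFB (-3.96), AKR1C1 (-1.60), ALDH3A1 (-1.18), CSF1 (-1.21), PBDC1 (-4.74), PSD3 (-8.73), WDR72 (-2.52) and LYPD6B (-3.15). TMT1A, CFB, AKR1C1, AQP3, CYP3A5, GAL and FILIP1L were near background in every SW48 group. Their differences therefore set a LIM1215 change against dim SW48 values. OAS1 and CEACAM1 were near background in resistant and parental SW48 cells, and SERPINA1 in every LIM1215 group.

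In withdrawal cells the change was more positive in SW48 for LYZ (1.65), SERPINA1 (1.10), ANXA6 (1.46), GJA1 (1.42), UCHL1 (2.35) and GAL (1.73). It was more negative there for FOSB (-2.47), TCP11L2 (-2.63), CYLD (-0.69), CYP3A5 (-2.19), ALDH3A1 (-5.29), WDR72 (-1.52) and LYPD6B (-2.68). Withdrawal and parental means of SERPINA1 and GJA1 were near background in both lines, and those of LYZ, UCHL1, GAL, CYP3A5 and TCP11L2 in SW48. The SW48 change of GJA1 did not pass without SW48 withdrawal replicate 3.

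Without LIM1215 parental replicate 3, all 18 differences in resistant and all 13 in withdrawal cells still passed the limma test, in the same direction. Those that moved by about 1 were OAS1 (2.95), CFB (-4.99) and IFI6 (2.02) in resistant cells, and FOSB (-3.56) and TCP11L2 (-3.55) in withdrawal cells.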

How the results depend on the processing

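The number of members was 170 with a limit of 0.8 on both changes and 42 with a limit of 1.5, and 103 to 114 when each Caco2 array was left out in turn. It was 112 after quantile normalization (102 shared), 128 with a lowest level of 7 and 77 with 9. Without each Caco2 array in turn, 75 members (47 higher, 28 lower) always passed the rule and 34 did not in at least 1 case. Among those 34 are FOS, JUN, CEACAM1, CSF1, CD74, IFI6, IFITM2, C1S, LRP2 and CTSH. With only the compared groups in the fit, members called numbered 13 in resistant and 9 in withdrawal LIM1215 cells, and 5 in withdrawal SW48 cells. The main fit gave 25, 33 and 9, and the cause of the lower counts was not tested. In withdrawal SW48 cells the count was 4 without parental replicate 1, 5 without parental replicate 2 and 4 without withdrawal replicate 3. Leaving out each array of the compared groups in turn gave 19 to 29 members in resistant and 26 to 37 in withdrawal LIM1215 cells. In SW48 it gave 22 to 27 in resistant and 4 to 10 in withdrawal cells. For the difference between lines it gave 26 to 36 in resistant and 16 to 31 in withdrawal cells. No count or called value of a named gene in the tables of alternatives changed sign. Without LIM1215 parental replicate 3, the uncalled resistant values of, among others, FOSB (0.85), FOS (0.47) and OAS1 (0.63) turned from lower to higher, as did OAS1 in withdrawal cells (0.81), which then passed. Of the tested values of named genes, 424 kept their call and 32, of 13 results, lost it. These were CST1, CYP3A5, FILIP1L, FOSB, LYZ and TCP11L2 in LIM1215 with only the compared groups fitted, and GJA1, HTR1D, IFITM2, PGC and WDR72 in withdrawal SW48 cells under several settings; the cause was not tested. Quantile normalization, a trended and robust prior, only genes above background and all transcript probe sets kept every count of called members within 1.5 times. Signal over background limits the 44 members that were near background in every group of LIM1215 and SW48.

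Same-numbered arrays of different states in a line were not correlated in their deviations (-0.041 to 0.075, 0 over 0.1), so they share only a number. With the replicate block the counts were 23 and 31 in resistant and withdrawal LIM1215, 27 and 10 in resistant and withdrawal SW48, and 30 and 22 for the differences between lines.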
